A study of Mus musculus with 8 samples.

Results

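Of 3331 differential m6A peaks in a mouse Leydig cell line, 361 (10.8%) were well covered in the immunoprecipitate (IP) of normal cells and had almost no reads in the IP of cells exposed to bisphenol A (BPA). They were chosen by 2 limits, at most 2.6 reads-per-million (RPM) in the BPA IP, which is 10 reads, and about 100 reads or more in the normal IP. They are called lost peaks here, and they belonged to 342 of the 2295 gene IDs in the table (14.9%). Since both IP columns chose them, their IP levels are given as a description with no test. The 2666 peaks that met the same minimum in the normal IP and held more than 10 reads in the BPA IP are called kept peaks.

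The cells were TM3, an established mouse Leydig line and thus 1 cell line in culture, either exposed to BPA or labelled normal, with no dose or exposure time in the labels. BPA is a plastics monomer with estrogen-like activity. Each condition had 2 RNA-seq libraries and 2 libraries of methylated RNA immunoprecipitation sequencing (MeRIP-seq), 8 libraries in 4 groups. In the peak table each condition has a single pooled IP value and a single pooled input value, so peak levels carry no replicate error, while the gene counts of the 4 RNA-seq libraries do.

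N6-methyladenosine (m6A) is a modification of adenosines inside mRNA. A writer complex built around METTL3 and METTL14 with the adaptor WTAP deposits it, the erasers FTO and ALKBH5 remove it, and readers such as the YTH proteins bind it and influence splicing, export, translation and decay. In MeRIP-seq an antibody enriches RNA fragments that carry the mark, and the unselected fragments, the input, give the RNA level of the same stretch. An IP signal depends both on the RNA present and on its methylation, which is why the input of each lost peak is set beside its IP below.

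The normal RNA-seq libraries held 10455643 and 7517482 reads, and the BPA libraries 8813870 and 6305121. BPA replicate 2 was the shallower. Of the 328 lost-peak genes in the count table, 51 had more than 10 reads in BPA replicate 1 alone, against 17 in BPA replicate 2 alone. For example, Hdgfl2 had 1267 and 1 reads in BPA replicates 1 and 2, and Dctn6 had 3 and 236. Why the replicates differ was not tested, and the shares over all genes are not given here. Of the Leydig markers searched for, Scarb1, the receptor for high-density lipoprotein, had 458 and 150 reads in normal and 1677 and 331 in BPA cells. The markers Star, Cyp11a1, Cyp17a1, Hsd3b1, Lhcgr, Insl3, Nr5a1 and Hsd17b3 are not among the rows of the count table and are not analysed here. The labels do not say that replicates were separate cultures. The p-values set the difference between conditions against the spread of these libraries only, and that spread may be technical. In bulk RNA, fewer cells of a kind and less RNA per cell cannot be told apart. The reads carry no molecular identifiers and so are not independent molecules, and the intervals and floors below cover counting error only.

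Most lost peaks were near or at 0 in the BPA IP. There 168 of the 361 (46.5%) had 0 reads, 103 had 1 read, 41 had 2 and 26 had 3, and the highest count was 9. A read equals 0.256 RPM in the BPA IP and 0.185 RPM in the normal IP, and a count of 0 in the BPA IP allows a level of up to 0.768 RPM. In the normal IP the same peaks had between 115 and 7307 reads, with a median of 1543. Their median level was 285.6 RPM (quartiles 197.9 and 400.6), above the 196.7 RPM of the kept peaks. The low group had a clear edge. Only 12 kept peaks had 11 to 50 reads in the BPA IP and 6 had 51 to 100, whereas 39 had more than 100 and up to 200.

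Around the limits, the lost peaks with the most signal in the BPA IP lay in Smad5, Luc7l2 and Tasp1, at 2.30, 2.05 and 1.79 RPM. Just outside were a pair of peaks in Pes1 and 1 in Gm4654, each at 2.81 RPM. At the other limit, Gm5913, Atf7ip and Palm were the lowest lost peaks in the normal IP, at 21.29, 36.1 and 53.5 RPM, and of the 11 peaks below the minimum with as few BPA IP reads, Gm5507 was the highest at 16.1 RPM. The authors' deposited table gives every lost peak a negative log2 fold change of IP over input, from -20.86 to -3.55, with a false discovery rate of at most 0.0141. At a false discovery rate under 0.05 it calls 31.2% of all 3331 peaks lower in BPA. The rule used the same IP values, so the shared direction supports nothing further.

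**Figure D1:**
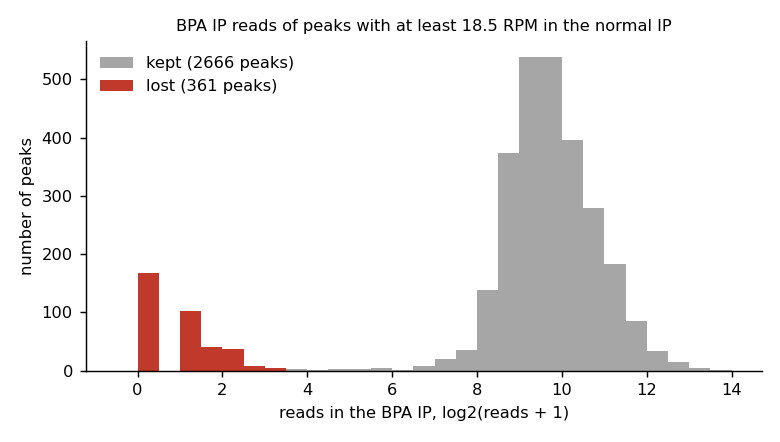
Number of lost (red) and kept (grey) peaks (y axis) by the reads in the BPA IP recovered from the pooled RPM, as log2(reads + 1) (x axis). The 361 lost peaks pile up at 0 and 1 reads, and few peaks lie between them and the 2666 kept peaks.

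The 10 strongest lost peaks lay in 9 genes. The highest was in Gspt1, which encodes the translation release factor eRF3a, at chr16:11050507-11053234 on the minus strand (a spliced peak, build read as GRCm39). It had 1352.60 RPM in the normal IP and 1.28 in the BPA IP, and its input was 1274.88 and 180.88 RPM. A second lost Gspt1 peak, 25 bases away, had 767.28 and 0.51 RPM in the IP with input of 1089.40 and 200.44 RPM. In the normal IP both thus stood close to or below their input level, and in both the input was several times lower in BPA, at 0.142 (95% interval 0.119 to 0.168) and 0.184 (0.156 to 0.216) of normal.

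In 8 of the 10, all but Gspt1 and one of a pair in Dek, the input was higher in BPA by more than the counting interval. Wwc2, a WW and C2 domain gene, went from 1120.47 to 0.77 RPM in the IP at chr8:48279544-48279693, while its input went from 646.24 to 1341.95 RPM. Nkap, which encodes a nuclear RNA-binding protein, had 986.08 and 0.77 RPM in the IP and 274.70 and 832.30 in the input. Cacybp, encoding the calcyclin-binding protein of a ubiquitin ligase complex, had 971.64 and 1.54 RPM in the IP at chr1:160031287-160032580 and 64.57 and 2382.02 in the input. Its input ratio of 36.9 (30.4 to 45.1) is the highest of the 10. That ratio describes the stretch under the peak and not the gene. As a gene, Cacybp had 3911 and 1652 RNA-seq reads in normal and 4579 and 914 in BPA libraries. These groups overlapped after scaling for library size. In Wwc2, Nkap and Cacybp the stretch had many reads in the BPA input and a handful in the BPA IP. These values are pooled. Listed peaks had to differ in IP over input, so peaks low in both could be missing.

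Dek, a chromatin-associated oncogene product, had neighbouring lost peaks at chr13:47251723-47251747 and chr13:47251773-47251822. They had 882.98 and 888.90 RPM in the normal IP and 0.26 each in the BPA IP. Their BPA input was 5.30 times the normal input (4.80 to 5.87) in the former and 1.12 times (0.980 to 1.28) in the latter, an interval that includes no difference. Luc7l2, a U1 snRNP-associated splicing factor, had 877.61 and 2.05 RPM in the IP and an input 3.82-fold higher in BPA (3.48 to 4.2). Nfx1, a zinc finger transcription factor gene, had 951.84 and 0.26 RPM in the IP with an input ratio of 1.77 (1.60 to 1.95). Cct5, a subunit of the CCT chaperonin, had 862.80 and 0.26 RPM with a ratio between 1.25 and 1.53. Its gene had 8450 and 3206 RNA-seq reads in normal and 3546 and 2485 in BPA libraries, groups that overlapped after scaling. The Dek gene had 3708 and 3121, then 5762 and 3268, with each BPA library above each normal library after scaling. Mtrr, which reactivates methionine synthase, had 852.80 and 1.02 RPM with a ratio of 2.34 (2.11 to 2.59). Of the strongest lost peaks described above, only those in Gspt1 had a lower pooled input in BPA. That lower input describes the stretches under the peaks and not the gene. As a gene, Gspt1 had 5133 and 4311 RNA-seq reads in normal and 4098 and 4850 in BPA libraries. These groups overlapped after scaling. Whether a change in RNA plays a part in the IP loss of these peaks was not tested.

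The 5 lost peaks with the most BPA input lay in Cacybp, Mat2b, Smad5, Dek and Luc7l2. Mat2b, the regulatory subunit of the enzyme that makes S-adenosylmethionine, the methyl donor of m6A, had 715.08 and 1.28 RPM in the IP and 153.78 and 1752.60 in the input. Smad5, a transducer of bone morphogenetic protein signals, had 728.22 and 2.30 RPM in the IP, 0 in the normal input and 1734.27 in the BPA input. With 0 reads in the normal input, where 3 reads equal 1.76 RPM, this stretch had IP signal without measurable input in normal cells and input without IP signal in BPA cells. Secisbp2l, a selenocysteine insertion factor homologue, held a pair of lost peaks of the same form, with 590.69 and 509.61 RPM in the normal IP, 0.77 each in the BPA IP, 0 in the normal input and 652.64 and 1093.85 in the BPA input.

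**Figure D2:**
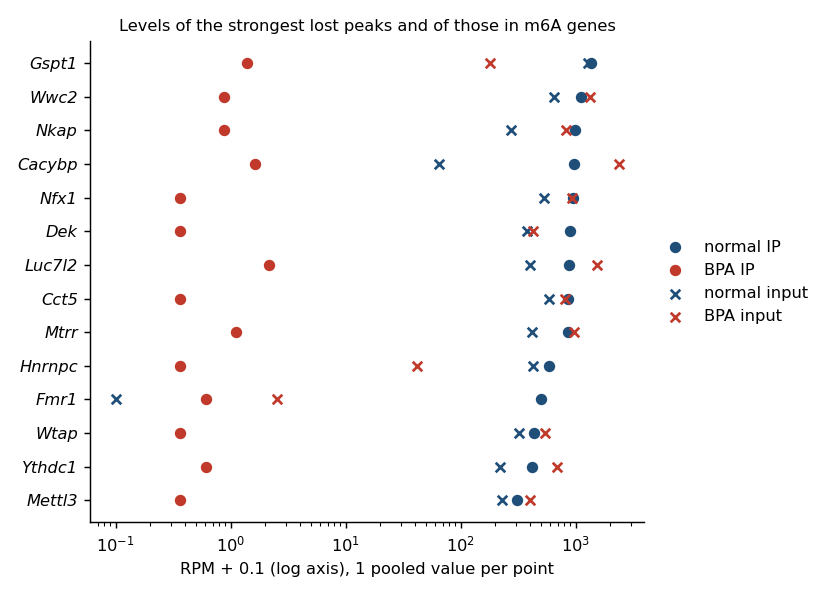
Pooled IP (points) and input (crosses) in normal (blue) and BPA (red) cells, as RPM + 0.1 on a log axis, for the strongest lost peak of 9 genes and the lost peaks of 5 m6A genes. The BPA IP is low in every row by the choice of peaks, while the BPA input is above the normal input in Cacybp and below it in Gspt1 and Hnrnpc.

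Across all 361 lost peaks the input fell into distinct classes, taking 10 RPM as present. The input was above 10 RPM in both conditions in 160 lost peaks (44.3%, against 50% of all listed peaks). In 141 it was at or below 10 RPM in both (39.1%, against 7.93%), in 44 it was present in normal only (12.2%, against 39.1%) and in 16 in BPA only (4.43%, against 3.03%). The class with little or no input in either condition is the one in which lost peaks stand furthest from the table as a whole, since only 40 of the 2666 kept peaks (1.5%) were in it. Listed peaks had to differ in IP over input, so a kept peak could be listed for its input alone. The shares of lost and kept peaks are therefore not an even comparison.

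The class present in both conditions had medians of 359.4 RPM in the normal IP, 206 RPM in the normal input and 345.3 RPM in the BPA input. The class in neither had 209.2 RPM in the normal IP (from 36.1 to 585.9), 0 in the normal input and 1.22 RPM, which is 1 read, in the BPA input. Peaks of the latter class were thus well read in the normal IP and had few or no reads in the other 3 columns, with up to 10 RPM of input allowed by its definition. Of all lost peaks, 140 (38.8%) had 0 reads in the normal input, against 9.16% of all peaks, and 70 (19.4%) had 0 in the BPA input, against 10.7%. The BPA input is also the shallowest column, in which 1 read equals 1.22 RPM and 3 reads 3.67 RPM.

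Among the listed lost peaks, the IP loss was not accompanied by a general fall in input. A peak whose input fell along with its IP may not differ in IP over input and could be missing here. The input values thus describe the listed peaks only. On the scale of log2(RPM + 1), the median change of input in BPA was 0.41 over the lost peaks, -2.19 over the kept peaks and -1.35 over all peaks. The input was at least 2-fold lower in BPA in 75 lost peaks (20.8%, against 52.0% of all peaks) and at least 2-fold higher in 152 (42.1%, against 24.3%). On this scale 1 read in BPA against 0 in normal passes as 2-fold, and 67 of the 152 were peaks with 10 RPM or less in both inputs. In the 220 lost peaks with more than 10 RPM in at least 1 input, 68 were lower (30.9%, against 55.9% of 3067 such peaks) and 85 higher (38.6%, against 21.0%). The median change in these was 0.43, against -2.10 over all such peaks. The normal IP helped choose the lost peaks, so its ratio to the input is partly set by that choice and is only described. In the 204 lost peaks with more than 10 RPM of normal input, the normal IP stood at a median of 1.89 times the input, against 0.850 times in 2554 such kept peaks. The IP was at least 2 times the input in 99 of these 204 (48.5%, against 18.3% of all 2966 such peaks) and below it in 21 (10.3%, against 57.1%). Of the 2966, 208 were below the normal IP minimum, and all 208 had an IP below their input. Among the lost peaks with a ratio near or below 1 were Gspt1 and the RNA helicase gene Ddx5. Ddx5 had 712.86 RPM in the normal IP and 971.42 in the normal input.

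**Figure D3:**
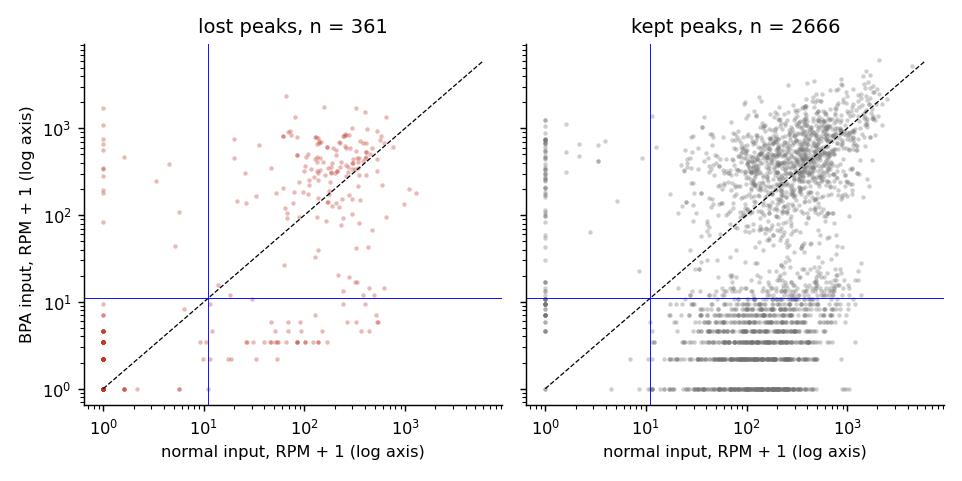
Input in normal (x axis) and BPA cells (y axis), as RPM + 1 on log axes, of lost (left) and kept peaks (right), with blue lines at 10 RPM and a dashed line of equal input. Lost peaks crowd the corner below both lines (141 peaks) and the area above both (160 peaks), and few lie where only the normal input is present (44 peaks).

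Genes of the m6A machinery were among those with lost peaks, 5 of the 10 listed machinery genes that had any peak. Mettl3, the catalytic writer subunit, had 306.36 RPM in the normal IP and 0.26 in the BPA IP at chr14:52534215-52534410, with 227.15 and 403.32 RPM of input. Wtap, the adaptor of the writer complex, had 433.16 and 0.26 RPM at chr17:13193411-13193435, with 323.42 and 545.09 of input. Ythdc1, the nuclear YTH reader, had 419.09 and 0.51 RPM at chr5:86983951-86983975, with 220.70 and 685.64 of input. In these 3 the pooled input was higher in BPA, at ratios of 1.78 (1.53 to 2.06), 1.69 (1.48 to 1.91) and 3.11 (2.72 to 3.55). These intervals do not cover the spread between replicates. In the RNA-seq libraries, which also served as input, Mettl3 had 830 reads in BPA replicate 1 and 1 in BPA replicate 2. Wtap was likewise read almost only in BPA replicate 1, whereas Ythdc1 was read in both.

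Hnrnpc, an hnRNP that binds sites exposed by m6A, had 589.58 and 0.26 RPM in the IP with a lower input in BPA, 424.37 and 41.55 RPM. Fmr1, an RNA-binding repressor of translation, had 502.57 and 0.51 RPM, with input of 0 and 2.44 RPM. A second Fmr1 peak 800 bases 3′ of it was present in both conditions, at 223.61 and 584.90 RPM. The machinery genes with listed peaks but no lost peak were Fxr1, Hnrnpa2b1, Igf2bp2, Ythdf1 and Zc3h13. All but Hnrnpa2b1 were higher in the BPA IP than in the normal IP. Fxr1 went from 79.23 to 433.68 RPM, Ythdf1 from 60.72 to 119.23, Igf2bp2 from 0 to 240.51 and Zc3h13 from 0 to 290.40. Hnrnpa2b1 went from 550.52 to 73.18 RPM. At 0 in the normal IP, the peaks of Igf2bp2 and Zc3h13 could not count as lost. Map1lc3b, the autophagosome protein gene named in the study's title, had no lost peak. Its listed peak had 246.01 and 200.6 RPM in the IP and 196.63 and 4.89 RPM in the input, with little distance between conditions in the IP and much in the input.

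Other gene lists held lost peaks in varying number. Of 7 MAP kinase pathway genes with a peak, 4 had a lost peak. Among them were the kinase gene Map3k4, with 303.58 RPM in the normal IP and 0 in the BPA IP, and the pathway inhibitor Spred2, with 79.60 and 0 RPM. Map3k4 had input of 31.70 and 1.22 RPM, whereas Spred2 had 0 in both inputs. Of 4 apoptosis genes, 2 had lost peaks, among them the pore-forming Bak1, with 186.78 and 0 RPM in the IP and 0 in both inputs.

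Among cell cycle genes the count was 4 of 12, with Rbl1, the retinoblastoma relative p107, Cdk4, Kif20a and the proliferation marker Mki67. RNA processing factors had lost peaks in 12 of 58 genes, led by Ddx5, Cpsf6 (650.11 to 0.51 RPM), Hnrnpc and Ddx21 (569.21 to 0). Ubiquitin ligase and deubiquitinase genes had them in 10 of 31, among them Klhl2 at 537.38 and Fbxo5 at 447.23 RPM in the normal IP, and zinc finger genes in 5 of 20. The histone enzymes Ezh2 and Hdac3 were 2 of 10. The autophagy gene Uvrag was 1 of 4, Rragc of the mTORC1 pathway 1 of 4, and the lysosomal Psap and Gaa 2 of 9. Chd3 was 1 of 11 chromatin remodellers, Pygo2 1 of 4 Wnt genes and Smad5 1 of 7 genes of the transforming growth factor family. No lost peak lay in the 1 steroidogenesis gene, 3 cholesterol genes, 4 Hippo genes, 5 immediate early genes, 5 receptor genes and 7 stress response genes that had peaks. These counts stand beside 14.9% of all gene IDs and were not tested as sets.

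For 123 of the 342 genes (36.0%), the loss concerned only some of the listed peaks. Among all genes with a peak that was not lost, 28.4% had another such peak. The 123 genes had 207 other listed peaks, which by the choice of lost peaks nearly had to hold more than 10 reads in the BPA IP. They did so at levels between 34.8 and 1543 RPM with a median of 232.6. The remaining 219 genes had no other listed peak, although peaks that did not differ would not be in this table. In the other peaks the IP was at least 2-fold higher in BPA in 74 (35.7%), at least 2-fold lower in 40 (19.3%) and within 2-fold in 93. Among 2763 peaks of genes without a lost peak, 36.3% were higher and 15.2% lower. The median log2 change of the IP was 0.33 in the other peaks and 0.43 in those genes. The retained peaks of lost-peak genes thus had a distribution of IP changes close to that of other genes.

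Cald1, which encodes the actin-binding caldesmon, lost a peak at chr6:34750893-34750967 with 722.86 and 0.51 RPM in the IP, while the gene kept 7 others. The one highest in the BPA IP had 300.62 RPM in the normal and 1543.10 in the BPA IP. Uso1, a Golgi vesicle tether, lost a peak of 509.05 RPM at chr5:92350011-92350035. A peak 225 bases 5′ of it went from 58.31 to 1275.47 RPM. Gas5, a noncoding host gene of small nucleolar RNAs, lost a peak of 243.24 RPM, and a peak 450 bases 3′ of it had 1100.85 and 1095.85 RPM. Las1l, a ribosome biogenesis gene, had 250.82 and 0 RPM in its lost peak and 166.23 and 995.81 RPM in its other peak. Gspt1 had another peak 1401 bases 5′ of its lost ones, which went from 39.06 to 401.45 RPM. In these genes other listed peaks were thus still read in the BPA IP. Apart from Gspt1, the genes were named for the height of that other peak, so a retained peak was given by the choice. They are examples and do not measure how often a loss was local.

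Lost and retained peaks could lie within a fragment length of each other. The labels give fragments of about 100 nt, and 12 genes had another peak within 100 bases of a lost one. In Cdk4, the cyclin D partner kinase, the lost peak at chr10:126901727-126901801 had 299.69 and 0.26 RPM. The peak 25 bases 3′ of it had 318.95 and 276.33 RPM. The input differed as sharply over this gap, with 0 and 1.22 RPM under the lost peak and 373.89 and 679.53 under its neighbour.

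Rbl1 had 383.73 and 0.26 RPM in its lost peak and 355.60 and 197.78 RPM in a peak 50 bases away. Pbx2, a homeodomain cofactor gene, had 486.66 and 0.26 RPM, and 479.07 and 222.60 RPM 75 bases away. In Palm both peaks had 53.50 RPM in the normal IP, and in the BPA IP they had 0 and 71.39 RPM. In these 4 of the 12 genes the neighbours were alike in the normal IP and parted in the BPA IP. In others they already differed in the normal IP, as in Cct5, with 862.80 RPM in the lost peak and 248.97 in its neighbour, and Mfsd1, with 554.96 and 972.38 RPM. The normal input also differed between neighbours in Rbl1 (9.39 and 285.26 RPM), Pbx2 (0 and 707.87) and Palm (0.59 and 46.96). Among genes with other peaks, 40 had a strongest lost peak with 10 RPM or less in both inputs, and in 36 of these the other peak with the most BPA IP had input above 10 RPM in at least 1 condition. Whether counting or peak calling plays a part in such steps was not tested.

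**Figure D4:**
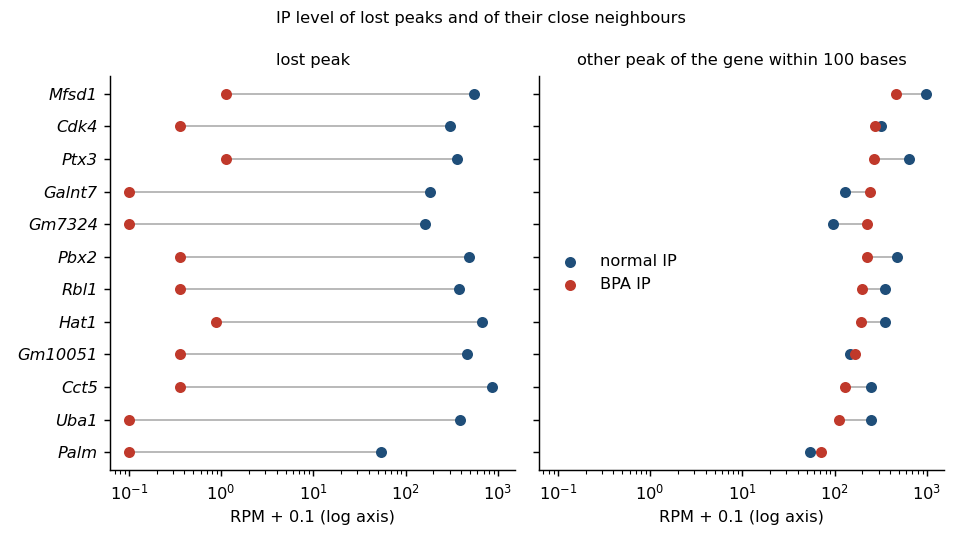
IP level in normal (blue) and BPA (red) cells of the lost peak (left) and of the closest other peak of the same gene (right), for the 12 genes with such a peak within 100 bases, as RPM + 0.1 on a log axis. The lost peaks are at 1.02 RPM or less in BPA, while the neighbours stay between 71.39 and 461.06 RPM.

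A smaller set of genes had peaks of both kinds. In 14 genes a lost peak stood beside 1 or more peaks that were below the minimum in the normal IP and present in the BPA IP, 15 such peaks in all, from 109.5 to 1088 RPM in BPA. The gene model Gm6793 had a lost peak of 310.25 and 0 RPM, and a peak 600 bases 3′ of it had 0.37 and 1088.43 RPM. Slc25a30, a mitochondrial carrier gene, had 201.40 and 0.26 RPM in its lost peak and 0.19 and 712.57 RPM 725 bases 5′ of it. Hspa8, the constitutive HSC70 chaperone, had 405.02 and 0 RPM and, 600 bases 3′, 12.96 and 453.39 RPM. In these 3 genes 1 position was read in the normal IP and another, low there, in the BPA IP. Some of the 14 genes also had peaks well read in both, such as Uso1 with 582.91 and 616.88 RPM and Usp34 with 574.03 and 629.67 RPM.

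The loss was mostly 1 peak per gene. A single lost peak was found in 324 genes, a pair in 17 and 3 in Selenof, which encodes a selenoprotein of the endoplasmic reticulum. The 3 Selenof peaks had 126.99, 127.17 and 216.39 RPM in the normal IP. Of 19 pairs of neighbouring lost peaks in the same gene, 8 were within 100 bases of each other and 4 had identical normal IP values. Among these were Chfr, Trnau1ap and Cog4, where the pairs lay 375 to 1330 bases apart, and whether such pairs hold the same reads was not tested. Usp34, a deubiquitinase gene, had lost peaks of 424.09 and 170.67 RPM, 30634 bases apart, with 3 other listed peaks 3′ of both. Gnaq, the G protein alpha q gene, had a pair 50 bases apart with 730.08 and 406.87 RPM in the normal IP and 0.77 and 0.26 in the BPA IP.

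The lost peaks shared few features of position. Their median width was 50 bases (25 to 175), against 75 in kept peaks. Spliced peaks made up 18.6% of lost and 20.1% of kept peaks, and 50.4% of lost peaks were on the plus strand. By chromosome, with at least 20 peaks, their share ran from 7.0% on chromosome 9 to 14.0% on X. Of 347 lost peaks whose gene has a biotype in RefSeq, 329 were protein coding, 14 pseudogenes and 4 long noncoding. Reads of pseudogenes and of the 6 double gene IDs can be shared with near-identical copies, and these peaks are uncertain. Some lost peaks of different genes start within a few bases of each other and have the same deposited p-value. Examples are Vps35l with Knop1 and Snw1 with Slirp. Whether such pairs hold the same reads was not tested, so the counts of lost peaks and genes may include doubles. Their place in exons, introns and UTRs and their sequence were not analysed here.

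The RNA of the lost-peak genes was tested in the RNA-seq counts, which the limits on the IP did not use. These libraries also served as the input, so they entered the listing of peaks by IP over input. The RNA values are therefore not fully separate from the choice. Of the 342 genes, 328 were in the count table and 313 passed the filter on low counts. With edgeR's quasi-likelihood test and Benjamini-Hochberg adjustment over 8645 genes, 0 were called (0.0% of all genes), and the smallest adjusted p was 0.372. DESeq2 called 3, Map3k4 lower (2.53% of all genes were called lower) and Prpf38b and Ncl higher (0.521%). At an unadjusted p under 0.05, edgeR gave 2 lower, Hnrnpll and Map3k4, where 7.23% of all genes were lower, and 10 higher, where 2.41% were higher. The 2 lower are 0.639% and the 10 higher 3.19% of the 313 genes. That excess of higher over lower did not hold in a fit of the genes averaging 1000 reads or more. There 4 of 155 lost-peak genes were lower (2.58%, against 1.42% of 1756) and 3 higher (1.94%, against 2.96%). Leaving out 1 library gave between 3, without normal replicate 1, and 56, without BPA replicate 1, in both directions together.

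Map3k4, a stress-activated kinase gene, had 872 and 283 reads in normal and 4 and 0 in BPA cells. Hnrnpll, a splicing regulator, had 1707 and 1288 in normal and 276 and 5 in BPA cells, with a log2 fold change of -2.99 ± 1.20 (SE). This value was -7.31 without BPA replicate 1 and between -2.24 and -2.92 without any other library. That of Map3k4, -7.59 ± 3.24, was -11.90 without BPA replicate 1. Chmp6, of the ESCRT-III membrane complex, had 225 and 36, then 1 and 0. Map3k4 and Chmp6 were near 0 in both BPA libraries, and Hnrnpll in BPA replicate 2 alone. In each of these genes the normal and BPA libraries did not overlap. Zfp970, Rbmxl1 and Pou6f1 had 0 reads in both BPA libraries. Zfp970 had 318 and 215 reads in normal cells and was at least 128-fold lower in BPA, against a floor of 3 reads over the group. Rbmxl1 had 162 and 191 and was at least 84.9-fold lower, and Pou6f1 had 606 and 44, far apart between the normal libraries. Near-zero BPA counts were not particular to these genes. Gapdh, a glycolytic gene used by every cell and rich in pseudogene copies, had 104 and 26 reads in normal and 1 and 0 in BPA libraries, and Map1lc3b 416 and 350, then 2 and 2. Whether counting plays a part in such low values was not tested.

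On the other side, Prpf38b, a splicing factor gene, had 6393 and 3920 reads in normal and 8365 and 10385 in BPA cells (log2 fold change 1.45 ± 0.45). Ythdc1 had 2334 and 2091, then 3612 and 6074 (1.71 ± 0.58). Ncl, which encodes nucleolin, had 56519 and 31640, then 58811 and 43876 (0.75 ± 0.27). Scaled for library size, every BPA library was above every normal library in these 3 genes. Without BPA replicate 2 the values were 0.92, 0.89 and 0.65, none with an unadjusted p under 0.05 by edgeR, and among genes averaging 1000 reads or more Ncl had 0.46. Klhl28 (3.20 ± 1.16) and the kinetochore gene Zw10 (4.08 ± 1.55) rested on low normal counts of 113 and 232, and of 0 and 126. Leaving out 1 library moved Klhl28 to between 2.25 and 4.12 and Zw10 to between 2.92, without normal replicate 1, and 12.91, without normal replicate 2.

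Other m6A genes differed between the BPA replicates more than between conditions. Wtap had 1025 and 946 reads in normal and 3632 and 3 in BPA libraries. Mettl3 had 452 and 82 in normal and 830 and 1 in BPA libraries. In both, BPA replicate 1 was above and BPA replicate 2 below both normal libraries, so no RNA change could be read for them. Fmr1 had 3273 and 1804, then 2216 and 3686, and Hnrnpc 8513 and 3056, then 5472 and 5576, groups that overlapped. The lists named above held 0 genes called by edgeR, members without a lost peak included. At an unadjusted p under 0.05, 2 of 23 tested m6A genes were lower and 1 higher, where 7.23% and 2.41% of all genes were.

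Over the 313 genes, the median log2 fold change was 0.18, against -0.02 over all 8645 genes. Without BPA replicate 1 the medians were -0.25 and -2.87, so the sign rests on that library while the median of lost-peak genes was above that of all genes in both fits. It was negative in 134 (42.8%, against 50.5%). Library groups did not overlap in 53 genes lower in BPA (16.9%, against 27.2% of all genes) and 59 higher (18.8%, against 12.8%). Of 284 lost-peak genes with at least 100 reads in both normal libraries, 5 (1.76%) had 10 or fewer in both BPA libraries, against 12.3% of all such genes, and 2 (0.704%) had 0 in both, against 6.39%. The lost-peak genes were more abundant than others, with 47.3% at a mean of at least 1000 reads against 14.2% of 12404 genes, and abundance moved with these shares. Among genes averaging 1000 reads or more, the median was 0.10 for lost-peak genes and 0.07 for all. There the groups did not overlap in 13 lower (8.39%, against 9.91%) and 43 higher (27.7%, against 28.4%), and 0 genes of either kind (0.0%) were at or below 10 reads in both BPA libraries. Among abundant genes these values of the lost-peak genes were thus near those of all genes. More than 10 reads in both BPA libraries were counted for 239 of the 328 lost-peak genes. The share over all genes is not given here, and the lost-peak genes were more abundant, so this count does not set them apart. Reads of a gene also do not show that the stretch under its lost peak was read. The BPA input was above 10 RPM in 176 of the lost peaks (48.8%, against 53% of all peaks).

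Genes of peaks with input in both conditions had more RNA reads than genes of peaks with little or no input, while the median RNA change differed little between classes. For peaks with 10 RPM or less in both inputs, the 131 genes in the count table had median reads of 861 and 573 in normal and 649 and 172 in BPA cells, and 76 had more than 10 reads in both BPA libraries. For peaks with input in both, 146 genes had medians of 1551 and 1174 in normal and 1526 and 838 in BPA cells, and 129 had more than 10 reads in both BPA libraries. The median log2 fold change of the gene was 0.26 in the class with both inputs, 0.09 with neither, 0.11 with normal only and 0.08 with BPA only. Of 206 lost peaks with input and a tested gene, the input of the peak and the RNA of the gene changed in the same direction in 122. By the design text both come from the same RNA-seq libraries, so this is not a comparison of separate assays. Why the direction differed in the rest was not tested.

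**Figure D5:**
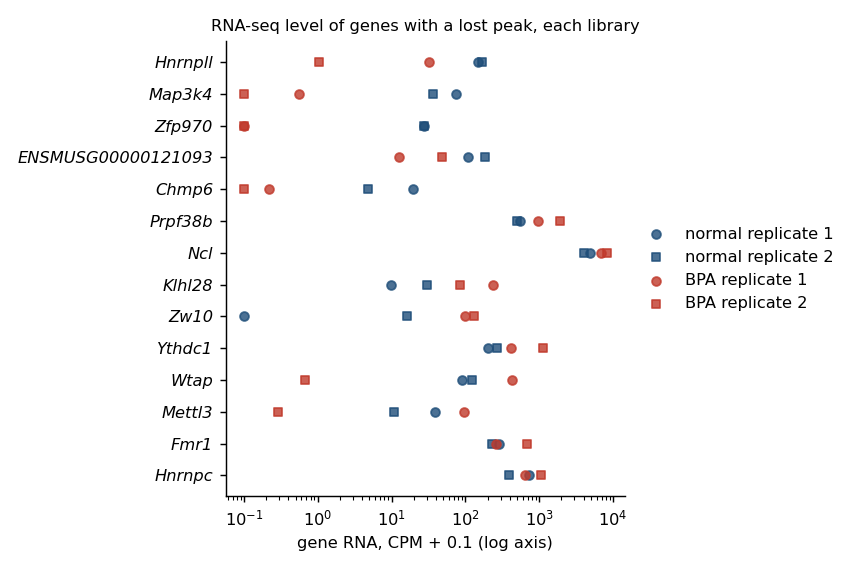
Gene RNA in each of the 4 RNA-seq libraries, as counts-per-million (CPM) + 0.1 on a log axis, for the genes with the smallest p in each direction and the m6A genes with a lost peak. Normal (blue) and BPA (red) libraries separate in the upper 10 rows, while in Wtap and Mettl3 the BPA libraries lie on either side of the normal ones.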

How the data were processed

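Polyadenylated RNA was fragmented and partly immunoprecipitated, per the labels' protocols. Gene counts were deposited by the authors as whole reads per Ensembl gene. The submitters' processing notes name DESeq2 1.38.3, featureCounts 2.0.1, HISAT2 2.2.1 and fastp 0.20.1, and the builds GRCh38 and GRCm39. The count columns name no assay and were read as RNA-seq. Peak RPM values, pooled over replicates, were deposited by the authors. Not given in the sources used here are the peak caller, the total behind the RPM and whether counting used strand. The log2 fold change, false discovery rate and p-value per peak, and a score equal to −log10 of that p-value, were deposited by the authors and only described.

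RPM values were whole multiples of 1 read in 100% of peaks within 0.1 read. The recovered totals were 5402183 and 3908372 reads for the normal and BPA IP and 1703692 and 818212 for the inputs. With 1 value per condition no count test was possible on the recovered reads and none was run. Input ratios carry exact conditional binomial 95% intervals. Starts were shifted to 1-based, and the build was read as GRCm39 because 11.3% of 3176 peaks lay inside their gene's GRCm38 span.

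The RNA test was edgeR 4.0.16 in R 4.3.3 (TMM, filterByExpr with minimum count 10 and total 15, robust quasi-likelihood F test, Benjamini-Hochberg at 0.05), with DESeq2 1.42.0 as an alternative. On simulated data the fit was tested on known changes. Named genes were the 10 highest in the normal IP, the 5 with most BPA input, up to 6 with several lost peaks, the 6 with the highest other peak, up to 5 per direction by smallest p, list members, and Map1lc3b. Other genes were picked to illustrate after their values were seen. The peaks and the 20 gene lists were chosen with earlier results of these data known. Same-numbered libraries deviated with a correlation of 0.0041. No per-sample column was left unused. Some members of these lists are not reported here.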

Additional observations from a re-analysis of the deposited data

How the results depend on the processing

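With 0 reads as the limit in the BPA IP, 168 peaks counted as lost in place of 361, and the limit of 5 reads and both other minimums in the normal IP stayed within 1.5 times. The median log2 change of input was 0.41 with 1 RPM or 0.1 RPM added, 0.31 with 5 RPM, 0.23 with at least 10 normal input reads and 1.76 relative to all peaks. Of 152 lost peaks with input at least 2-fold higher, 85 had input above 10 RPM in at least 1 condition, a subset chosen after seeing the data, as were the older edgeR method and the input levels of 5 and 50 RPM. With 3 or fewer reads in place of 0, 168 lost peaks had no BPA input in place of 70. Genes with 10 or fewer reads in both BPA libraries numbered 21, and 9 had 0 reads. The count of genes with another peak was 123 under every limit run. DESeq2 called 3 lost-peak genes and 264 of all genes, where edgeR called 0 of each, and leaving out 1 library gave 0 of the lost-peak genes and 0 to 1 of all genes. At an unadjusted p under 0.05 the 12 lost-peak genes (2 lower, 10 higher) became 20 with DESeq2 (6 lower, 14 higher), 7 in a fit of genes averaging 1000 reads or more (4 lower, 3 higher), and 3 to 56 without 1 library. The lowest was without normal replicate 1 and the highest without BPA replicate 1; without BPA replicate 2 it was 40 and without normal replicate 2 it was 7. The older edgeR method gave 5 lower and 7 higher. The median RNA change of 0.18 was 0.28 with DESeq2 and 0.32 with its size factors, and -0.25 to 0.25 without 1 library. It reversed to -0.25 without BPA replicate 1, where the median of all genes was -2.87; the cause was not tested. With the replicate number as a block, 0 genes were called, 1 was lower and 12 higher at an unadjusted p under 0.05, and the median was 0.13. The libraries share only a number (correlation of deviations 0.0041). The planned motif search was not run, since no genome of the build was used here. Depth limits the BPA input most, and the pooled peak values carry no replicate error.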
